A study of Mus musculus with 8 samples.

Results

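The mouse incisor grows throughout life, and the comparison described here set the progeny tissue of its growth zone against the stem-cell tissue of the same zone in Ctrl mice. The cervical loop (CL) was divided into a head (CLH), which holds the dental epithelial stem cells, and a tail (CLT), which holds their progenies. RNA-seq of 2 Ctrl CLH libraries and 2 Ctrl CLT libraries was compared over all genes with an RPKM (reads divided by gene length and by the library's total) of at least 1 in at least 2 of these 4 libraries, a filter that 13035 of 23358 genes passed. The series also holds 2 CLH and 2 CLT libraries of *Med1* cKO mice, in which Cre recombinase driven by the *Krt14* promoter removes exons of the Mediator subunit gene *Med1* from epithelial cells. The mice of both genotypes were 4 weeks old and on a C57BL/6 background, the Ctrl mice were littermates without Cre, and the study describes 2 litters with cervical loops pooled in each group. Males and females were not separated. Below, CLH and CLT without a genotype stand for the Ctrl libraries, numbered 1 and 2, and values given as pairs are RPKM, those of CLH before those of CLT. The labels call the material dental epithelial cells, but the dissected tissue also held other cells: *Dspp*, the dentin matrix gene of odontoblasts, measured 545 and 423 RPKM in CLH and 543 and 644 in CLT.

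Enamel is made by ameloblasts, epithelial cells that descend from the stem cells of the cervical loop and pass through stages as they move toward the tip. In the secretory stage they lay down a protein matrix of amelogenin, ameloblastin and enamelin, which the protease MMP20 begins to cut. In the maturation stage they switch to another set of genes, remove the matrix with the protease KLK4, attach to the enamel through a lamina containing AMTN and ODAM, and move calcium, phosphate, bicarbonate and, in rodents, iron into the hardening layer. Before that, the epithelium near the stem cells divides under Wnt, Hedgehog, FGF and BMP signals exchanged with the mesenchyme.

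The libraries differed in ways that touch every result below. Reads on genes numbered 28651106 and 22330512 in CLH and 24951483 and 22765777 in CLT. Within CLH the 2 libraries differed by a median of 0.0927 in log2(RPKM + 1), and within CLT by 0.384, and 1537 genes (11.8%) differed more than 2-fold between the CLT libraries, against 44 between the CLH libraries. Transcripts of hair, epidermis, muscle, fat and pigment cells were high in CLT 1 and not in CLT 2. *Krt71*, a keratin of the hair's inner root sheath, measured 1229 RPKM in CLT 1 but 1.30 in CLT 2. It stood at 0.575 and 0.428 in CLH, and at 3726 and 4189 in cKO CLT. Over the 280 genes that were under an RPKM of 1 in both CLH libraries and in CLT 2 and at least 10 in both cKO CLT libraries, the level in CLT 1 had a median of 32.3% of the mean cKO CLT level (quartiles 29.7% and 34.9%). All 280 were above 10% in CLT 1, and the median in CLT 2 was 0.0478%. Whether tissue of cKO CLT was part of the pool of CLT 1 was not tested, nor was the part of this material in each result, so values of CLT 1 stand here as those of the library labelled Ctrl. For this reason most lists below are also given for CLT 2 alone, as the genes in which CLT 2 lay above or below both CLH values or as the median without CLT 1.

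**Figure D1:**
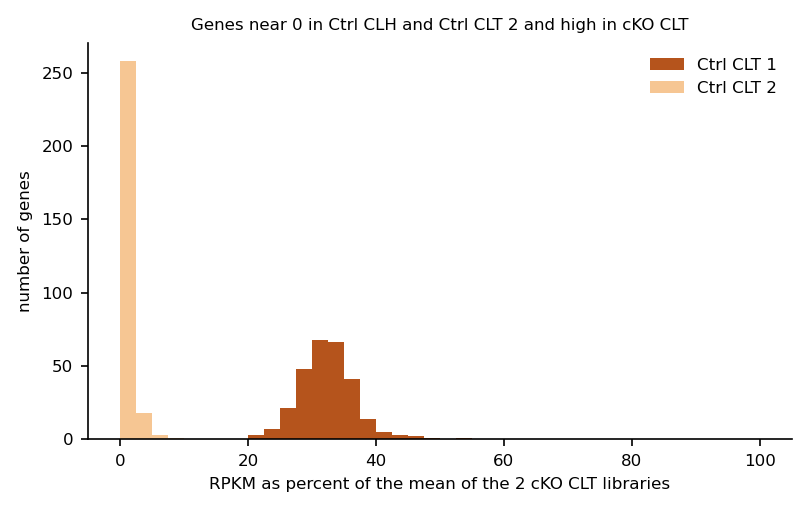
Level of 280 genes in each CLT library as a percent of the mean of the 2 cKO CLT libraries (x axis), with the number of genes in each bin of the histogram (y axis). The genes were chosen as near 0 in CLH and CLT 2, which fixes the low place of CLT 2, and as high in cKO CLT. CLT 1 lies in 1 peak around 32.3%.

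The sex make-up of the pools also differed. *Xist*, the RNA that coats the inactive X chromosome of females, measured 58.9 and 57.9 in CLH, 18.7 in CLT 1 and 1.02 in CLT 2. The Y-linked genes *Kdm5d*, *Uty*, *Ddx3y* and *Eif2s3y* were higher in both CLT libraries, and *Eif2s3y* reached 67.0 in CLT 2 against 4.05 and 2.21 in CLH. Sex and tissue cannot be told apart for genes that differ between males and females. The CLH and CLT pools thus did not hold the same animals in the same shares. Differences between animals therefore cannot be told apart from those between tissues. *Med1* itself measured 7.71 and 9.12 RPKM in CLH and 4.83 and 8.71 in CLT, so the tissues overlapped. In cKO it measured 7.10 and 7.03 in CLH and 9.15 and 8.96 in CLT, a level over the whole gene that includes exons Cre leaves in place and cells without Cre.

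Of the 13035 genes, 1855 had both CLT values above both CLH values (14.2%) and 5134 had both below (39.4%). With CLT 1 left out, 4597 were above and 6909 below, and with CLT 2 left out, 3616 and 8462. Fewer values need then be on 1 side. List counts with both CLT libraries are to be read beside the 14.2% above and 39.4% below. Those in CLT 2 alone are to be read beside these 4597 above and 6909 below of 13035 genes. The split depended on scaling. The 7 enamel genes *Amelx*, *Ambn*, *Enam*, *Mmp20*, *Klk4*, *Amtn* and *Odam* took 13.3% and 5.72% of the gene reads in CLT against 2.10% and 1.88% in CLH. The median log2 difference (CLT minus CLH) over all genes tested was -0.16 in RPKM and -0.01 after median-of-ratios scaling, under which 3095 genes lay above and 3203 below. The higher genes were 26.5% of the non-overlapping genes in RPKM, 49.1% after median-of-ratios scaling and 41.3% after quantile normalization. By limma's test on log2(RPKM + 1), with Benjamini-Hochberg adjustment over all 13035 genes, 2 genes passed an adjusted p of 0.05 as higher in CLT (0.0153%) and 0 as lower (0.0%), while 591 higher and 1348 lower genes reached an unadjusted p of 0.05, and voom on the recovered reads called 2 and 0. A fit of all 8 libraries, which takes in the spread of the cKO groups, called 394 (3.02%) higher and 690 (5.29%) lower. In the text below, a gene is called above or below where both CLT values lay on that side of both CLH values. This is a description and no test. A gene under an RPKM of 1 in both CLH libraries passed the filter only through both CLT values, so it could only be above. Such genes include *Slc24a4*, *Wdr72*, *Gm1045*, *Car6*, *Slc26a1*, *Dsg3*, *Tns4*, *Akr1c18* and *Krt71*. Genes under 1 in both CLT libraries, such as *Cldn2* and *Sox2*, could only be below. In whole tissue, fewer cells of a type and less RNA per cell cannot be told apart.

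**Figure D2:**
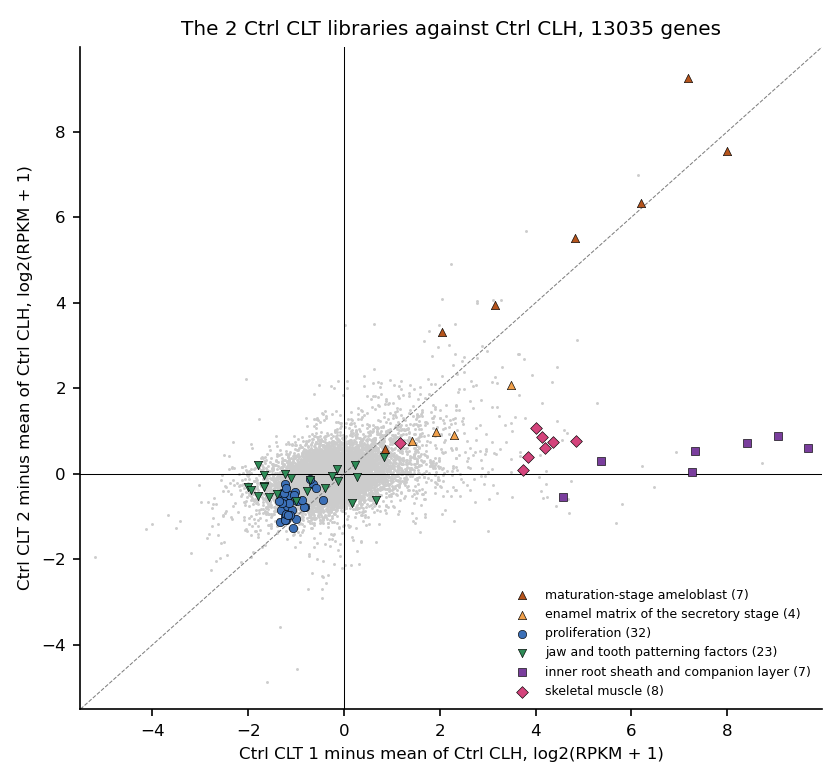
Difference of CLT 1 (x axis) and CLT 2 (y axis) from the mean of the 2 CLH libraries in log2(RPKM + 1), for 13035 genes (grey) and 6 gene lists (coloured, number of genes tested in brackets); the dashed line marks equal differences. Maturation-stage genes lie high in both libraries, proliferation genes low in both, and inner root sheath and muscle genes far to the right with values near 0 in CLT 2.

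The genes of enamel maturation set CLT apart most clearly. All 7 measured genes of the maturation-stage list passed the filter and were above, also in CLT 2 alone. Their median log2 difference was 5.17 (5.52 without CLT 1), against -0.16 over all genes. *Slc24a4*, *Wdr72* and *Gm1045* were under an RPKM of 1 in both CLH libraries, so the filter fixed their place as above. *Klk4*, the protease that clears the enamel matrix (chromosome 7, 43881172 to 43885804, mm10), measured 1.46 and 1.65 RPKM in CLH and 187 and 206 in CLT. *Amtn*, which encodes amelotin of the attachment lamina (chromosome 5, 88376108 to 88385916), had 13.8 and 19.3 in CLH and 4429 and 3246 in CLT. These were the 2 genes that rose by the test: *Klk4* by 6.27 on the log2 scale (SE 0.14, limma adjusted p = 0.0118) and *Amtn* by 7.77 (SE 0.25, limma adjusted p = 0.0244). In both genes the CLT libraries stood close together, although CLT 1 also held the hair and skin transcripts.

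*Odam*, which encodes the odontogenic ameloblast-associated protein of the same lamina (chromosome 5, 87885695 to 87892742), had the largest log2 difference of the 7 list members. Its RPKM was 4.21 and 5.91 in CLH, 871 in CLT 1 and 3671 in CLT 2, a difference of 8.22 (SE 0.74, limma adjusted p = 0.148). Both CLT values were far above both CLH values, but they differed from each other, and the test was not passed. In the fit of all 8 libraries its limma adjusted p was 0.00293.

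The RefSeq sequence (GRCm38.p6) before the start of these genes is shown because *Amtn* and *Odam* lie on the same stretch of chromosome 5, *Klk4* and *Amelx* do not, and all 4 were above. Each run is the 250 bases that end just before the RefSeq start, in the direction of transcription, and capitals mark matches on either strand. The words searched were the RUNX word TGTGGT, the homeodomain word TAATTG, the AP-1 word TGANTCA, the TATA box TATAAA and the CCAAT box. The windows lie at chr7:43880910-43881159 (*Klk4*, plus strand), chr5:88375858-88376107 (*Amtn*, plus), chr5:87884760-87885009 (*Odam*, plus) and chrX:169187210-169187459 (*Amelx*, minus). The deposited table starts *Odam* 685 bases and *Klk4* 12 bases after these windows.
Klk4: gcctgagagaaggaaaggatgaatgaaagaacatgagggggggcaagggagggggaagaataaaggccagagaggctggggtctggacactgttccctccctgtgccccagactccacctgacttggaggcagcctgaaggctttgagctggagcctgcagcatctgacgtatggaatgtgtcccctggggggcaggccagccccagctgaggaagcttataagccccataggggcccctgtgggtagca
Amtn: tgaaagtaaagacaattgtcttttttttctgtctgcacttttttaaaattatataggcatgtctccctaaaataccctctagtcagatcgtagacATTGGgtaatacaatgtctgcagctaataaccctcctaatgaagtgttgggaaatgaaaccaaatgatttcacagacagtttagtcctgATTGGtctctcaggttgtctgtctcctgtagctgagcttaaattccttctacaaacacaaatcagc
Odam: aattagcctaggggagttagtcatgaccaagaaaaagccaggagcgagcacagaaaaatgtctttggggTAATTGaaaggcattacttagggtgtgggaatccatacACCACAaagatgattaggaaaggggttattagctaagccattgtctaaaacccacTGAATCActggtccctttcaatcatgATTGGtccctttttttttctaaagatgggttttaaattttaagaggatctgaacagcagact
Amelx: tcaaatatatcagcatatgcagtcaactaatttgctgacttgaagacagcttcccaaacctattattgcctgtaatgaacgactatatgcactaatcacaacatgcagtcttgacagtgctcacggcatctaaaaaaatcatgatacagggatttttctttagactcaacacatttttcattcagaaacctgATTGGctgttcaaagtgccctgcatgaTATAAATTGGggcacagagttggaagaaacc
The *Odam* window held a match to TGTGGT 143 bases before the start, TAATTG at 181, TGANTCA at 88 and CCAAT at 62. The *Amtn* window held CCAAT at 155 and 66 bases, and the *Amelx* window TATAAA at 31 and CCAAT at 58 and 26, the TATAAA and the latter CCAAT match overlapping. None of the 5 motifs was found in the *Klk4* window. Over 32851 windows of the same length, TGTGGT occurred in 14.1%, TAATTG in 7.17%, TGANTCA in 6.75%, TATAAA in 12.4% and CCAAT in 33.9%, so each match is a description of these letters.

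Other maturation genes followed at lower levels. *Slc24a4*, a potassium-dependent sodium-calcium exchanger of the ameloblast membrane, measured 0.750 and 0.836 RPKM in CLH and 49.98 and 81.2 in CLT (log2 difference 5.17, SE 0.28, limma adjusted p = 0.0843). *Wdr72*, a gene needed for enamel maturation, had 0.189 and 0.150 against 3.86 and 10.7. The predicted gene *Gm1045*, the table's name for the enamel mineralization gene now called Odaph, had 0.115 and 0.196 against 9.32 and 16.9, the CLH values resting on 3 and 4 reads. In the fit of all 8 libraries, with its single spread for all groups, 6 of the 7 passed.

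**Figure D3:**
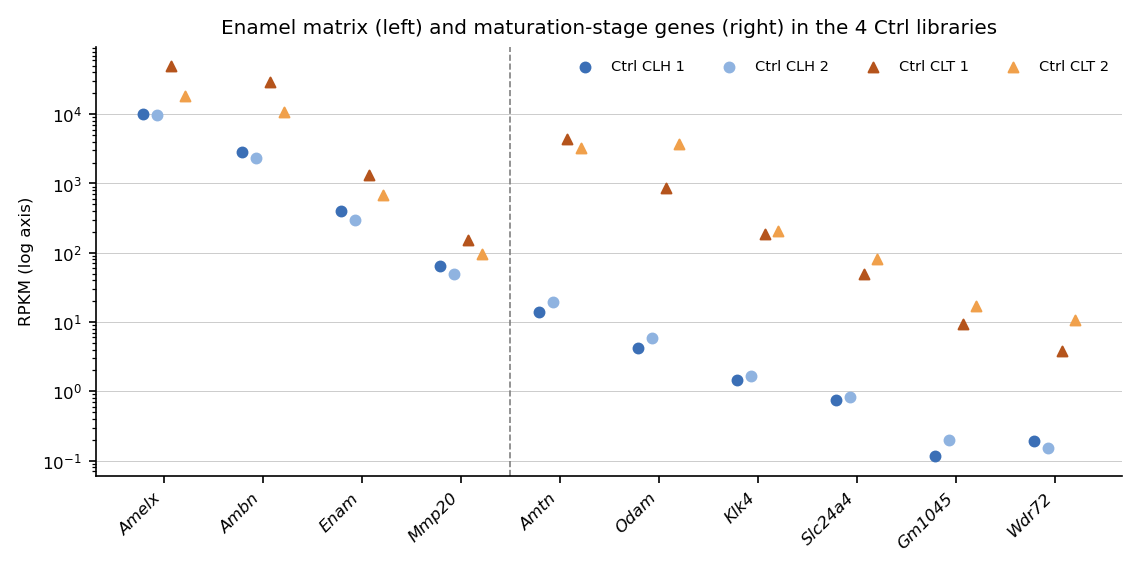
RPKM (log axis) of 4 secretory-stage matrix genes and 6 maturation-stage genes in each of the 4 Ctrl libraries; each point is 1 library. Both CLT points lie above both CLH points for every gene shown, by most for Odam, Amtn and Klk4 and by least for Mmp20.

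Secretory-stage genes were already abundant in CLH and were above in CLT by less. *Amelx*, which encodes amelogenin, the bulk of the enamel matrix, was the most abundant of the eligible genes in both tissues, with 10173 and 9794 RPKM in CLH and 48799 and 18601 in CLT. *Ambn* (ameloblastin) had 2821 and 2334 against 28838 and 10887. *Enam* (enamelin) had 400 and 300.4 against 1309 and 684, and *Mmp20*, the secretory-stage protease, 64.6 and 48.7 against 152 and 96.5. All 4 were above in RPKM, and CLT 1 was the higher CLT library for each. Among maturation genes, CLT 2 was higher for *Klk4*, *Odam*, *Slc24a4*, *Wdr72* and *Gm1045*, and CLT 1 for *Amtn*. Quantile normalization gives the most abundant gene of each library the same value, and under it *Amelx* had a log2 difference of 0.0 and 3 of the 4 were above. The list's median log2 difference was 1.52, and 0.94 without CLT 1 and 2.10 without CLT 2. None of the 4 passed the test, with limma adjusted p from 0.243 for *Ambn* to 0.311 for *Amelx*.

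A further 16 genes known from inherited enamel defects gave 7 above (43.75%, against 14.2% of all genes) and 2 below. Their median log2 difference of 0.62 became 0.27 without CLT 1. *Acpt*, an acid phosphatase gene, led with 46.2 and 35.1 RPKM in CLH and 390 and 104 in CLT, and *Lama3* and *Lamb3*, which encode chains of a laminin that anchors epithelium to its basement membrane, were above too. *Itgb6*, *Fam20c* and *Fam20a* were above as well, the last 2 being a kinase of secreted proteins and its partner. The 2 genes below were transcription factors, *Sp6* with 238 and 241 against 120 and 153 and *Dlx3* with 137 and 135 against 125 and 120, a direction that turned for *Dlx3* after median-of-ratios scaling (0.03). *Fam83h* overlapped between the tissues, with 11.9 in CLT 1 and 3.76 in CLT 2 against 4.65 and 3.92.

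Genes that move calcium were above in 13 of the 15 tested (86.7%, against 14.2% of all genes), and in 13 also with CLT 2 alone. Their median log2 difference was 0.98. The median was 0.62 without CLT 1 and 0.50 with no filter on low values, which takes in all 19 genes of the list. *Calb1*, the calcium buffer calbindin, measured 160 and 175 RPKM in CLH and 504 and 614 in CLT. *Atp2a2*, the calcium pump of the endoplasmic reticulum, had 47.3 and 44.9 against 136 and 157. Both store sensors and a channel they open were above: *Stim1* had 25.5 and 23.9 against 54.9 and 48.9, *Stim2* 7.66 and 7.65 against 18.7 and 33.1, and *Orai2* 10.7 and 11.4 against 28.8 and 24.1. The 2 members below were the sodium-calcium exchanger *Slc8a3*, with 2.85 and 2.75 against 0.958 and 1.79, and the pump *Atp2a3*, with 1.77 and 2.30 against 1.45 and 1.07. No member passed the test, and 6 passed in the fit of all 8 libraries, all as higher.

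Of 14 genes for acid, bicarbonate, chloride and phosphate transport, 10 were above (71.4%, against 14.2% of all genes) and 0 below. Their median log2 difference was 1.13, and 13 were above in CLT 2 alone. *Car6*, the secreted carbonic anhydrase, measured 0.106 and 0.516 RPKM in CLH and 90.2 and 162 in CLT (log2 difference 6.56, SE 0.36, limma adjusted p = 0.0843). Its level was higher still in cKO CLT, at 224 and 229. *Slc26a1*, an anion exchanger, had 0.667 and 0.704 against 10.6 and 26.7, the phosphate carrier *Slc34a2* 1.29 and 1.22 against 10.3 and 24.5, and the chloride channel *Cftr* 2.24 and 2.28 against 10.6 and 20.9. All 3 were higher in CLT 2 than in CLT 1. The cytosolic *Car2* (44.2 and 43.5 against 34.8 and 50.8), *Car12*, *Slc26a6* and *Clcn7* overlapped between the tissues.

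Iron genes went both ways, with 6 of 11 above (54.5%) and 2 below (18.2%), against 14.2% and 39.4% of all genes. In CLT 2 alone 7 were above and 3 below. The storage and uptake genes stood out. *Ftl1*, a ferritin subunit, measured 616 and 593 RPKM in CLH and 987 and 1843 in CLT, and was among the 10 most abundant genes of CLT. *Fth1*, the other ferritin subunit, had 513 and 520 against 947 and 1677. *Tfrc*, the transferrin receptor that brings iron into cells, had 12.8 and 12.9 against 43.4 and 118. *Slc40a1*, the exporter ferroportin, and *Hmox1*, which frees iron from heme, were above too, with *Slc40a1* at 6.59 and 8.34 against 33.5 and 15.1. The 2 below were *Cp* and *Heph*, ferroxidases that act in iron export, *Cp* with 4.99 and 5.80 against 1.63 and 3.86.

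Several genes outside the enamel and transport lists separated the tissues widely in the same direction. *Akr1c18*, a steroid dehydrogenase, measured 14.1 and 54.9 in CLT, while each CLH library had 3 reads. Its mean was about 407-fold higher, a ratio that rests on those few reads and is uncertain. *Kcnn4*, a calcium-activated potassium channel, had 1.73 and 1.26 in CLH and 23.2 and 40.3 in CLT. *Rcan1*, an inhibitor of calcineurin that responds to calcium signals, had 13.1 and 12.1 against 116 and 225. *Cox7a1*, a subunit form of respiratory complex IV best known from muscle and a member of the respiratory chain list, had 2.38 and 2.24 against 23.3 and 25.3, the closest agreement between the CLT libraries among the 12 genes with the widest gap (log2 difference 2.93, SE 0.15, limma adjusted p = 0.0843). *Anxa8* (3.13 and 2.57 against 111 and 32.5) and *Tns4* (0.965 and 0.892 against 23.0 and 12.5) were higher in CLT 1 and higher still in cKO CLT, where *Anxa8* reached 243 and 238. Both CLT values were at least 2-fold above both CLH values on the RPKM + 1 scale for 150 genes (1.15%).

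**Figure D4:**
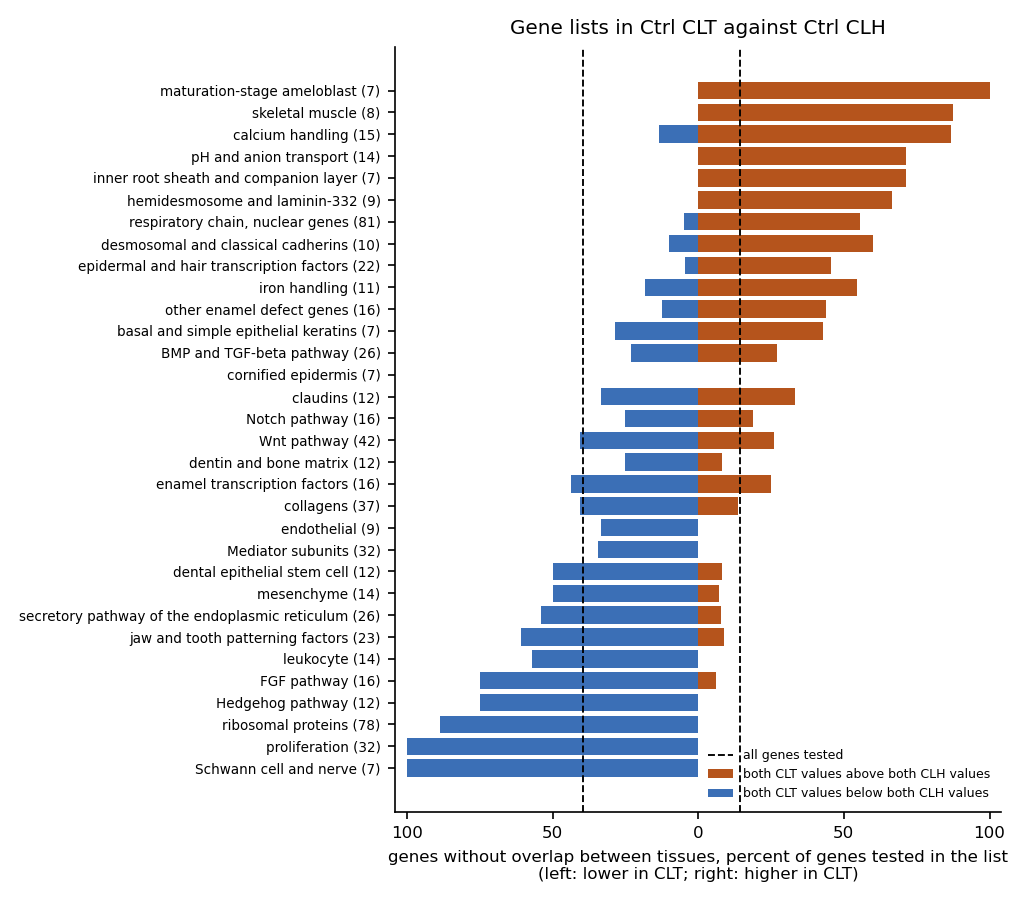
For each list with at least 7 genes tested (number in brackets), the percent of its genes with both CLT values above (right) or below (left) both CLH values; dashed lines mark the shares over all genes tested, 14.2% above and 39.4% below. Maturation, calcium and pH lists reach furthest to the right among enamel lists, and proliferation and nerve lists reach 100% on the left.

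Genes of cell division were lower in CLT throughout. All 32 tested members of the proliferation list were below, also in CLT 1 alone and in CLT 2 alone, against 39.4% of all genes, and the median log2 difference was -0.90 (-0.74 after median-of-ratios scaling, when 31 were below). *Mki67*, the common marker of dividing cells, measured 23.1 and 24.97 RPKM in CLH and 9.37 and 15.4 in CLT. *Cdk1*, the kinase that drives mitosis, had 27.0 and 26.6 against 11.7 and 13.3, and *Cdc20*, which triggers sister chromatid separation, 32.5 and 31.7 against 13.2 and 14.6. *Mcm2* of the replication helicase had 18.1 and 17.2 against 6.90 and 7.79, and *Cenpa*, the histone of centromeres, showed the largest difference of the list, with 34.3 and 38.6 against 13.8 and 16.2 (log2 difference -1.23). The smallest was that of *Ccne2*, with 2.28 and 2.71 against 1.14 and 2.21. No member passed the test, 26 had an unadjusted p under 0.05, and 22 passed as lower in the fit of all 8 libraries.

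The cell cycle inhibitors went both ways. *Cdkn2b*, which encodes the CDK4 and CDK6 inhibitor p15, measured 1.46 and 1.26 RPKM in CLH and 9.79 and 18.1 in CLT, and *Cdkn1a*, encoding p21, had 119.5 and 104.6 against 247 and 164. *Cdkn1c*, *Cdkn2d* and *Cdkn2c* were below, *Cdkn1c* with 48.8 and 47.6 against 15.3 and 45.3. *Cdkn1b* overlapped between the tissues. In CLT 2 alone 3 of the 6 were above and 3 below.

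Markers of the dental epithelial stem cell were low in both tissues or differed little, with a few exceptions. Of 12 tested, 6 were below (50%, against 39.4% of all genes) and 1 above. In CLT 2 alone 8 were below and 3 above, against 6909 and 4597 of all 13035 genes. *Sfrp5*, a secreted Wnt inhibitor of the stem cell niche, measured 15.1 and 15.5 RPKM in CLH and 1.64 and 5.07 in CLT, the largest difference of the list. *Gli1*, a target of Hedgehog signals, had 68.8 and 69.2 against 32.6 and 38.5, and *Sox2*, a stem cell factor, 1.37 and 1.45 against 0.710 and 0.551. *Foxd1*, *Pknox2* and *Spock1* were the other 3 below, and the integrin *Itga6* was above. *Lgr5*, a Wnt receptor partner that marks stem cells in several epithelia, did not pass the filter: it had 0.0987 and 0.190 in CLH, 1.69 in CLT 1 and no read in CLT 2, against 7.37 and 6.53 in cKO CLT. *Bmi1*, *Lrig1* and *Igfbp5* overlapped between the tissues. Of the markers usual for the labelled stem-cell tissue, *Sfrp5*, *Gli1* and *Sox2* were thus higher in CLH in all 4 comparisons of libraries, and *Lgr5*, *Bmi1* and *Lrig1* were not.

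Hedgehog signalling genes were lower in CLT, with 9 of 12 below (75%, against 39.4% of all genes) and 0 above (median log2 difference -0.51). *Shh*, the ligand, measured 65.2 and 87.6 RPKM in CLH and 10.5 and 46.1 in CLT. Its receptor and target *Ptch1* had 49.3 and 44.97 against 11.9 and 28.6, and *Hhip*, a target that binds the ligand, 8.93 and 12.8 against 1.12 and 5.41. *Smo*, the signal transducer, had 43.5 and 43.9 against 29.6 and 34.6. Ligand, receptor and targets were thus below in both CLT libraries, further in CLT 1 than in CLT 2. *Gli3*, *Gli2* and *Gas1* overlapped. After median-of-ratios scaling 6 of the 12 were below, against 3203 of all 13035 genes. In CLT 2 alone 10 were below (median -0.56 without CLT 1).

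FGF genes showed a like pattern, with 12 of 16 below (75%, against 39.4% of all genes) and 1 above (median log2 difference -0.61). Without CLT 1 the median was -0.30, with 12 below and 4 above in CLT 2 alone. The ligands *Fgf3*, *Fgf10* and *Fgf7*, which come from the mesenchyme around the loop, were below, *Fgf3* with 5.67 and 5.52 RPKM in CLH and 0.372 and 3.12 in CLT and *Fgf10* with 4.42 and 5.42 against 0.770 and 3.27. The transcription factors *Etv4* and *Etv5*, which FGF signals induce, had 22.1 and 22.2 against 7.05 and 8.93 and 19.0 and 19.6 against 6.12 and 10.8. The receptor *Fgfr2* had 38.2 and 41.9 against 22.1 and 28.7, and the feedback inhibitors *Spry1*, *Spry2*, *Spry4* and *Dusp6* were below. *Fgf1* was the member above, with 5.79 and 6.06 against 11.7 and 12.3. In the fit of all 8 libraries *Fgf1* passed as higher and *Etv4*, *Etv5*, *Fgf7* and *Fgfr2* as lower.

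**Figure D5:**
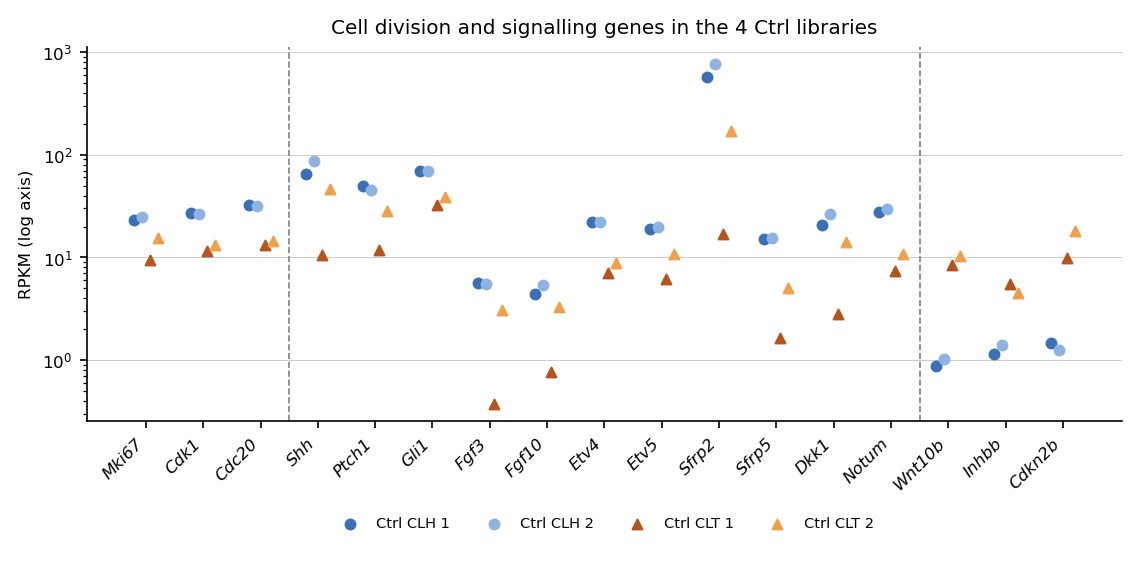
RPKM (log axis) of 3 cell division genes (left), 11 signalling genes that were below (middle) and 3 genes that were above (right) in each of the 4 Ctrl libraries; each point is 1 library. CLT 1 is the lowest library for each of the 14 genes to the left of the second dashed line.

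Wnt pathway genes went in both directions, with 17 of 42 below (40.5%) and 11 above (26.2%), against 39.4% and 14.2% of all genes. Their median log2 difference of -0.18 (-0.22 without CLT 1) was near that of all genes. Secreted inhibitors led those below. *Sfrp2* measured 576 and 761 in CLH, 17.1 in CLT 1 and 170 in CLT 2. *Dkk1* had 20.8 and 26.4 against 2.83 and 14.1, and *Notum*, an enzyme that inactivates Wnt ligands, 28.0 and 29.7 against 7.33 and 10.7. The transcription factor *Tcf7* had 44.6 and 44.2 against 13.5 and 23.3, and *Axin2*, a target often used to read Wnt activity, 7.72 and 7.66 against 6.06 and 5.15. Among those above were 4 ligands: *Wnt10b* had 0.887 and 1.02 against 8.46 and 10.3 (log2 difference 2.41, SE 0.14, limma adjusted p = 0.148), *Wnt4* 11.7 and 10.1 against 40.0 and 18.8, *Wnt7b* 1.40 and 1.33 against 3.90 and 3.11, and *Wnt7a* 6.31 and 6.54 against 13.3 and 6.93. *Wnt10b* stood at 10.2 and 9.94 in cKO CLT, a level like that of CLT.

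BMP and TGF-beta genes also went both ways, with 7 of 26 above (26.9%) and 6 below (23.1%), against 14.2% and 39.4% of all genes. In CLT 2 alone 17 were above and 6 below, against 4597 and 6909 of all 13035 genes. *Inhbb*, an activin subunit, measured 1.15 and 1.42 RPKM in CLH and 5.49 and 4.51 in CLT. *Bmp3* had 5.28 and 6.30 against 12.8 and 11.8, and the activin antagonist *Fst* 5.69 and 6.21 against 13.0 and 9.32. The inhibitors of differentiation differed from each other: *Id4* was above, with 28.2 and 30.7 against 54.9 and 102, and *Id3* (238 and 225 against 136 and 150) and *Id1* were below. *Bmp5* showed the lowest difference, with 7.53 and 8.18 against 1.49 and 5.24. With CLT 2 alone 9 of the 16 Notch genes were above and 7 below. With both libraries, 3 were above (*Jag1*, *Hes1* and *Rfng*) and 4 below (*Lfng*, *Hey2*, *Heyl* and *Notch3*), all with a log2 difference under 0.5 in size, and that of *Notch3* turned positive after median-of-ratios scaling and quantile normalization. Of 5 ectodysplasin genes, *Edaradd* and *Tnfrsf19* were below and *Eda* was above.

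Transcription factors of jaw and tooth patterning were lower in CLT, with 14 of 23 below (60.9%, against 39.4% of all genes) and 2 above. The median log2 difference was -0.60, and -0.29 without CLT 1. *Pax9* measured 6.44 and 6.88 in CLH, 1.01 in CLT 1 and 4.89 in CLT 2, and *Dlx5* had 53.3 and 56.3 against 15.1 and 37.8. *Hand2* had the same order, with CLT 1 far lower than CLT 2. *Isl1* was among the 2 above, with 18.0 and 18.9 against 21.9 and 21.3. Among 16 factors of the enamel lineage 4 were above (25%) and 7 below (43.75%), against 14.2% and 39.4% of all genes. In CLT 2 alone 7 were above and 8 below. With both libraries *Runx1* led those above with 9.79 and 10.8 against 17.2 and 15.6. *Twist1* led those below with 15.1 and 16.3 against 4.99 and 11.4. The list holds both epithelial and mesenchymal factors.

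Of 22 genes listed here as epidermal and hair factors, not all of them shown to be transcription factors, 10 were above and 1 below. The share above was 45.5%, against 14.2% of all genes. *Trp53inp2* had the largest difference, with 18.6 and 17.3 RPKM in CLH and 57.6 and 50.8 in CLT, and *Foxq1* had 4.12 and 3.65 against 7.58 and 7.35. *Trp63*, the master factor of stratified epithelium, had 22.4 and 24.6 against 38.7 and 33.2. *Hr* had 48.4 in CLT 1 and 10.3 in CLT 2 against 9.51 and 8.95. *Uhrf1*, which maintains DNA methylation in dividing cells, was the member below, with 21.2 and 20.0 against 8.31 and 10.001. With CLT 2 alone, 12 were above and 10 below.

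Adhesion genes of the ameloblast layer were above in part. Of 9 hemidesmosome and laminin-332 genes 6 were above (66.7%, against 14.2% of all genes) and 0 below (6 and 2 in CLT 2 alone). Of 10 desmosomal and classical cadherins 6 were above (60%) and *Cdh11*, a cadherin of mesenchyme, was below. *Dsg3*, a desmoglein of the basal layers of stratified epithelium, measured 0.721 and 0.263 RPKM in CLH and 7.15 and 8.24 in CLT, a log2 difference of 2.56. Claudins, the proteins that seal tight junctions, were divided, and in CLT 2 alone 5 of 12 were above and 7 below. *Cldn1* had 24.01 and 24.8 against 134 and 99.1 and *Cldn20* 15.1 and 11.95 against 61.2 and 29.4, whereas *Cldn2* had 3.89 and 4.95 against 0.223 and 0.294. *Cldn11*, *Cldn6* and *Cldn17* were also below, and *Cldn5* and *Cldn12* above. *Cldn4* overlapped between the tissues, with 52.8 in CLT 1 and 0.955 in CLT 2. Of 4 connexins tested, 1 was above and 1 below (25% each, against 14.2% and 39.4% of all genes). In CLT 2 alone 2 were above and 1 below. *Gja1*, the connexin of the ameloblast layer, was the member above, with 326 and 331.8 against 430 and 733.

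Keratins of the basal layer, *Krt5* (278 and 278 against 633 and 436) and *Krt14* (196 and 178 against 543 and 275), were above, as was *Krt15*, with 12.04 and 12.3 against 146 in CLT 1 and 15.7 in CLT 2. The simple-epithelium pair *Krt8* (20.7 and 19.1 against 8.63 and 11.3) and *Krt18* (13.5 and 15.6 against 4.37 and 6.66) was below. Genes of the inner root sheath and companion layer of hair gave 5 of 7 above in RPKM (71.4%, against 14.2% of all genes). Their median log2 difference, however, was 3.93 with both libraries, 0.53 without CLT 1 and 7.34 without CLT 2. Their summed RPKM was 15.0 and 16.3 in CLH, 3878 in CLT 1, 18.6 in CLT 2, and 11541 and 12545 in cKO CLT. *Krt25*, *Tchh* and *Krt27* followed *Krt71* in this. The 7 cornified epidermis genes that passed the filter all overlapped between the tissues, with a summed level of the list of 1081 in CLT 1 and 12.8 in CLT 2. Keratin-associated proteins summed to 6287 in CLT 1 and 5.77 in CLT 2 and none passed the filter, nor did any Hox gene, small proline-rich gene or hair shaft keratin. These values hold for single libraries, and the 2 libraries of CLT do not give 1 level for such genes.

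Skeletal muscle genes were above in 7 of 8 tested (87.5%, against 14.2% of all genes), and 7 remained above in CLT 2 alone at small differences. *Acta1*, skeletal actin, measured 5.62 and 5.61 in CLH, 190 in CLT 1 and 10.3 in CLT 2, and *Ckm*, muscle creatine kinase, had 2.83 and 2.55, 74.95 and 5.18. The list summed to 46.0 and 39.8 in CLH, 844 in CLT 1, 70.9 in CLT 2 and 2280 and 2511 in cKO CLT. *Fabp4*, the fat cell fatty acid carrier, had 244 in CLT 1 and 7.22 in CLT 2 against 7.03 and 9.52. Of 4 melanocyte genes tested *Dct*, a melanin synthesis enzyme, and *Mitf* were above, *Dct* with 1.77 and 1.595 against 46.3 and 7.39. *Dct* was thus higher than CLH in CLT 2 as well.

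Cells of the tooth's connective tissue were present in both tissues. The mesenchyme list gave 7 of 14 below (50%, against 39.4% of all genes) and 1 above. Its median log2 difference of -0.69 became -0.20 without CLT 1 and -1.28 without CLT 2. *Twist2* measured 26.3 and 28.8 RPKM in CLH and 4.53 and 13.2 in CLT, and *Pdgfra*, a growth factor receptor of mesenchymal cells, 45.9 and 45.8 against 13.5 and 38.5. *Col3a1*, a fibrillar collagen, was the member above, with 436 and 441 against 527 and 456. In the dentin and bone list 3 of 12 were below (in CLT 2 alone 3 below and 6 above), *Dmp1* (47.1 and 49.9 against 15.6 and 17.9, log2 difference -1.48, SE 0.14, limma adjusted p = 0.157), *Spp1* and *Ibsp*, and *Alpl*, the alkaline phosphatase of mineralizing cells, was above. *Dspp*, *Col1a1* and *Bglap* overlapped, so odontoblast and bone transcripts as a group did not separate the tissues. The osteoclast gene *Mmp9* was below, and *Ctsk* and *Acp5* overlapped.

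Nerve markers were lower, and leukocyte markers in part. All 7 Schwann cell and nerve genes tested were below, also in each CLT library alone and under both other scalings, with *Ngfr* at 9.62 and 11.6 against 2.36 and 4.49, *S100b* at 7.49 and 9.12 against 2.30 and 3.804 and *Pmp22* the least different. In the fit of all 8 libraries 5 of the 7 passed as lower. Leukocyte genes gave 8 of 14 below (57.1%, against 39.4% of all genes) and 0 above in RPKM. After median-of-ratios scaling 4 were below, and in CLT 2 alone 10 were below and 4 above. The neutrophil genes had the order CLH over CLT 1 over CLT 2. *S100a9* had 172 and 143 in CLH, 115 in CLT 1 and 28.9 in CLT 2. Macrophage genes *C1qa*, *C1qb* and *Cd68* overlapped. Of 9 endothelial genes *Vwf*, *Plvap* and *Esam* were below and the others overlapped (3 below and 5 above in CLT 2 alone), with *Esam* at 0.00 on the log2 scale after median-of-ratios scaling.

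Other genes with a wide gap were also lower in CLT. *Ltbp2*, a protein of elastic microfibrils, measured 19.9 and 26.1 RPKM in CLH and 2.49 and 4.02 in CLT (log2 difference -2.51, SE 0.26, limma adjusted p = 0.186). *Thbs4*, thrombospondin 4, had 11.3 and 11.8 against 2.37 and 2.51 and the smallest p of the eligible genes that were lower (log2 difference -1.86, SE 0.16, limma adjusted p = 0.148). *Igfbpl1* had 10.7 and 11.7 against 1.25 and 2.27, and the retinoic acid synthesis enzyme *Aldh1a2* 15.7 and 21.6 against 1.13 and 4.37. *Mia1*, *Kcne4*, *A2m*, *Pdzrn4* and the neuropeptide gene *Grp* completed the 12 with *Cldn2*, *Sfrp2* and *Xist*. Both CLT values were at least 2-fold below both CLH values on the RPKM + 1 scale for 61 genes (0.468%). Collagens gave 15 of 37 below and 5 above, near the shares over all genes (16 and 14 in CLT 2 alone), *Col8a2* leading those below with 38.0 and 39.3 against 2.71 and 17.5 and *Col6a4* those above.

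Some genes divided the 2 CLT libraries in the opposite sense to hair keratins. *Omd*, an osteoblast proteoglycan, measured 51.3 and 59.0 in CLH, 10.2 in CLT 1 and 93.1 in CLT 2. *Mmp13*, a collagenase, had 502 and 652, 31.8 and 232, and *Pcp4* 75.5 and 86.0, 4.05 and 35.4. *Frem1* and *Tac1* in CLT 2 were at or above the CLH level, while CLT 1 was far below it, *Frem1* having 32.3 and 31.2, 4.63 and 31.4. *Pmch*, the precursor of a neuropeptide, was above in both CLT libraries, with 2.41 and 1.99 against 3.93 and 35.4.

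Genes of general cell function differed by less. Ribosomal protein genes were below in 69 of 78 (88.5%, against 39.4% of all genes), with a median log2 difference of -0.35. *Rps4x* measured 1921 and 2003 RPKM in CLH and 1355 and 1609 in CLT. After median-of-ratios scaling 35 were below, 0 above, and the median was -0.17, while in RPKM the median without CLT 1 was -0.43. Nuclear genes of the respiratory chain were above in 45 of 81 (55.6%, against 14.2% of all genes) and below in 4, with a median of 0.26. With CLT 2 alone 48 were above and 27 below. The name pattern behind this list also took *Cox4nb*, which encodes no chain subunit and was among the 4 below. Secretory pathway genes of the endoplasmic reticulum were below in 14 of 26 (53.8%, against 39.4% of all genes) and above in 2. In CLT 2 alone 16 were below and 9 above. *Sec24d*, a coat protein of transport vesicles, had 26.1 and 25.5 against 13.5 and 15.4. The chaperone *Hspa5* had 248.9 and 246 against 187 and 197. *Dnajb9* and *Atf6* were the 2 above. Mediator subunit genes were below in 11 of 32 in RPKM (34.4%, against 39.4% of all genes), with a median of -0.17. After median-of-ratios scaling 2 of 32 were below and 7 above (median 0.01). In CLT 2 alone 17 were below and 7 above in RPKM, against 6909 and 4597 of all 13035 genes. The counts below thus lay near the shares over all genes or under them.

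The CLT minus CLH difference of the enamel genes was not the same in Ctrl and cKO by the test of the difference. That test also used a single spread for all groups, although CLT varied most. The interaction (the CLT minus CLH difference in cKO minus that in Ctrl) was negative with a limma adjusted p under 0.05 for all 4 matrix genes and all 7 maturation genes tested, against 10.8% of all genes. *Klk4* stood at 0.886 and 1.48 in cKO CLH and 0.231 and 0.119 in cKO CLT (interaction -7.15, SE 0.23, limma adjusted p = 7.16e-05), and *Amelx* at 9733 and 11044 in cKO CLH and 6.57 and 3.68 in cKO CLT (interaction -12.36, SE 0.63, limma adjusted p = 0.000324). *Car6* and *Cox7a1* went the same way in both genotypes, with interactions of 0.87 (SE 0.40, limma adjusted p = 0.164) and 0.01 (SE 0.21, limma adjusted p = 0.969).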

How the data were processed

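RNA-seq of Ctrl CLH and Ctrl CLT tissue was used, with 2 libraries a group, grouped by the sample labels. The authors extracted total RNA, trimmed the reads with Trim Galore 0.4.3.1, aligned them with STAR 2.6.0b-1 to mm10 and counted them with featureCounts 1.6.3, and their notes name DESeq2 2.11.40.2. They deposited 1 table of RPKM values with gene lengths. Its annotation and strand setting are not given in the sources used here, so values of antisense, overlapping and near-identical genes, keratins among them, are uncertain. Values times gene length came in whole steps (100% of those checked, tolerance 0.01 reads), and the step gave library totals from about 26590000 to 34420000 reads. A fold over 3 reads, as for *Akr1c18*, carries a large counting error and is no lower bound. No library column of the table was left aside (0 unused).

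From the RPKM, log2(RPKM + 1) was tested with limma 3.58.1 in R 4.3.3 (lmFit and eBayes with a variance trend, two-sided, Benjamini-Hochberg adjustment, threshold 0.05) over the 4 Ctrl libraries, and the interaction over all 8. The scale understates the fold of low genes. The study describes 2 litters, but no source ties a library or its number to a litter, so p-values measure the spread between these libraries. The smallest p of an exact permutation test at this size (2 libraries on each side) is 0.333. Members and lists were chosen with earlier results of these data known. Genes named by rule were *Med1*, *Klk4*, *Amtn* and *Odam*, the list members past the threshold, at a list's extremes or needed for a count of 5 or fewer, in each direction the 12 genes with the widest gap between the tissues and the 5 with the smallest p, the 10 most abundant genes in each tissue, and the 8 genes that most divided the Ctrl CLT libraries. Parts of the rule other than the list members took only genes over 200 bases whose name is on 1 row and not mitochondrial, predicted or pseudogene names. Some list members are counted but not reported here by name. Other list members given as examples were picked with their values known. The alternatives were pseudocounts of 0.1 and 0.5, other scalings, other filters, all 8 libraries in 1 fit, a replicate block, other variance settings, voom on the recovered reads, log2 ratios of group means, requiring a log2 difference of at least 1, and leaving out each library. The scripts were tested on simulated data with the same spread in every group, which the real CLH and CLT libraries did not have.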

Additional observations from a re-analysis of the deposited data

Results flagged for a closer look

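The CLT minus CLH difference was more negative in cKO than in Ctrl, by the limma interaction test at an adjusted p under 0.05, for the following enamel genes. On the log2 scale the difference of the differences was -12.55 for *Ambn*, -12.36 for *Amelx*, -10.00 for *Enam* and -6.89 for *Mmp20* among the matrix genes. Among the maturation-stage genes it was -9.44 for *Odam*, -7.91 for *Amtn*, -7.15 for *Klk4*, -3.26 for *Gm1045*, -3.23 for *Slc24a4* and -2.90 for *Wdr72*. The comparison shares the Ctrl libraries with the report above. Over all genes 988 interactions were positive and 1412 negative at this threshold. With 2 libraries a group, no group was large enough to look for a library far from the others.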

How the results depend on the processing

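The count of genes past the threshold depended on the settings. As higher and lower in CLT, median-of-ratios scaling gave 5 and 0, quantile normalization 7 and 1, no filter on low values 0 and 0 (limma adjusted p = 0.0696 for *Klk4* and 0.252 for *Amtn*), and all 8 libraries in 1 fit 394 and 690. Leaving out 1 library, when the one left is assumed to vary like the pair of the other tissue, gave 5 to 2162 higher and 0 to 5827 lower. These were 5 and 0 without either CLH library, 1678 and 2859 without CLT 1, and 2162 and 5827 without CLT 2. The other settings gave 2 and 0. A replicate block over the library numbers, which no source ties to a litter, gave 44 and 5 and, for the interaction, 600 positive and 1088 negative. The deviations of same-numbered libraries had a correlation of 0.242 over 13035 genes, and 2 numbers are too few to check a pairing by it. *Xist* and the Y-linked genes differed between same-numbered CLH and CLT libraries, so these pools did not hold the same animals in the same shares.

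Genes above numbered 3095 after median-of-ratios scaling and 2228 to 4597 with 1 library left out, and genes below 3203 and 5828 to 8462; fewer values need then be on 1 side. Positive interactions numbered 24 to 3104 and negative ones 323 to 4861 with 1 of the 8 libraries left out. Without CLT 1 they were 3104 and 4861, without CLT 2 they were 2885 and 2781, and without any 1 of the others 24 to 62 and 323 to 384. For the 177 genes followed through the settings, 5 of 2832 log2 differences turned. For *Dlx3* the value was 0.031 and for *Esam* 0.0039 after median-of-ratios scaling. For *Notch3* it was 0.055 after that scaling and 0.038 after quantile normalization. For *Med1* it ran from -0.69 without CLT 2 to 0.048 without CLT 1. The cause of these shifts was not tested. Depth limits genes with a few reads, such as *Gm1045* in CLH.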
